A study of Mus musculus with 16 samples.

Results

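The genes described here were 10 autosomal mouse genes of the Toll-like receptor (TLR) system: the receptors *Tlr1*, *Tlr2*, *Tlr3*, *Tlr4*, *Tlr5*, *Tlr6* and *Tlr9*, and the partner genes *Ly96*, *Cd180* and *Ly86*. They were chosen by name, with earlier results of these data known, out of 20807 autosomal protein-coding genes annotated by GENCODE vM21 on the mm10 build. The X-linked receptors *Tlr7*, *Tlr8* and *Tlr13* were not analysed here. DNA methylation was read in 16 whole genome libraries of spleen lymphocytes. The mice were C57BL/6J at 6 to 8 weeks of age in every group, and the labels give no treatment. B cells were resting CD43- cells and T cells were naive CD4+CD62L+ cells, both sorted with magnetic beads. Each cell type had 8 libraries, 4 from males and 4 from females, and in each sex 2 were standard bisulphite (BS) and 2 were oxidative bisulphite (oxBS) libraries. BS reads 5-methylcytosine and 5-hydroxymethylcytosine alike as methylated, while oxBS reads 5-methylcytosine only. The DNA was pooled over mice, no mouse is named, and BS and oxBS libraries may have been made from the same DNA, so p-values measure the spread between these libraries, which may be partly technical. Libraries are called by the numbers their labels carry, which run from 1 to 16.

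TLRs are membrane receptors of innate immunity that recognise conserved microbial molecules and signal through TIR-domain adaptors such as MYD88 towards NF-kB and interferon regulatory factors. Some sit at the cell surface and bind lipopeptides, flagellin or, together with MD-2, lipopolysaccharide (LPS), while others sit in endosomes and bind nucleic acids. Resting B cells are known for responses to LPS and to CpG DNA and for the surface complex of RP105 and MD-1, encoded by *Cd180* and *Ly86*, whereas naive CD4+ T cells rely mainly on the antigen receptor. CpG methylation near a start site is commonly low where a gene is in use. A level between the extremes in a sorted population cannot separate a mixture of methylated and unmethylated cells from partial methylation in each cell.

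Libraries held between 123693203 and 171130063 calls over all chromosomes, and their autosomal calls came to 5.83 to 8.07 per autosomal CpG. The level over all autosomal calls ranged from 79.4 to 81.5% over the B cell libraries and from 78.4 to 79.6% over the T cell libraries. The sorted cell types were compared with their defining markers. Of 7 B cell marker promoters 6 were called lower in B cells, and the other, *Pax5*, was lower by 14.3 points. Of 7 T cell marker promoters 5 were called lower in T cells, while *Bcl11b* and *Tcf7* were at most 10.7% in either cell type and lower in T cells by 3.78 and 10.4 points. None of 7 myeloid marker promoters was called, but *Lyz2* was lower in B cells by 18 points with no overlap of libraries (adjusted p = 0.0004) and *Cebpe* by 6.27 points (adjusted p = 0.0081). *Itgam*, *Cd68*, *Mpo* and *Elane* were higher in B cells by 8.31, 5.92, 2.64 and 0.33 points, and *Csf1r* was lower (-2.48 points). None of these had an adjusted p under 0.05. The mean over the 7 myeloid markers was between 70 and 77.3% in every library. Of 4 markers of NK and CD8 T cells, *Cd8a* and *Cd8b1* were called lower in the CD4+ T cells, at 60.8 and 35.2% pooled. The other 2 were not called and were high in both cell types. *Ncr1* was at 87.4% in B cells and 88.4% in T cells, and *Klrb1c* at 81.0 and 82.1%.

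A promoter is the window of 1 kb on either side of the start site (TSS), and a tile is a 500 bp step from 5 kb upstream of the TSS to the gene end. A level is the percentage of methylated calls, given per library, and a difference is the level of B cells minus that of T cells in percentage points, with the calls of the 8 libraries pooled. A promoter or tile was called where the quasi-binomial model gave an adjusted p under 0.05 over all promoters or all tiles and the pooled difference reached 20 points.

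Methylation was called lower in B cells than in T cells at the promoters of *Ly86*, *Cd180* and *Tlr9*. The difference was -59.9 points at *Ly86*, -31.0 points at *Cd180* and -30.6 points at *Tlr9*. Thus 3 of 10 member promoters were called higher in T cells, against 0.397% of 20388 promoters tested. None was called higher in B cells, against 0.711%, and at that share nothing is read from a lack of calls among 10 promoters. At the same 3 promoters the 8 B cell and 8 T cell libraries did not overlap, which held for 3.69% of all promoters. Of the other 7 members, *Tlr1*, *Tlr6*, *Tlr4* and *Ly96* had an adjusted p under 0.05 with smaller differences, and *Tlr2*, *Tlr5* and *Tlr3* did not. *Tlr6* and *Ly96* were higher in B cells, and *Tlr1* and *Tlr4* lower. An adjusted p under 0.05 was thus found at 7 of 10 member promoters and at 2083 of all 20388. The median difference over the 10 members was -4.09 points and over all promoters 0.52 points.

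**Figure D1:**
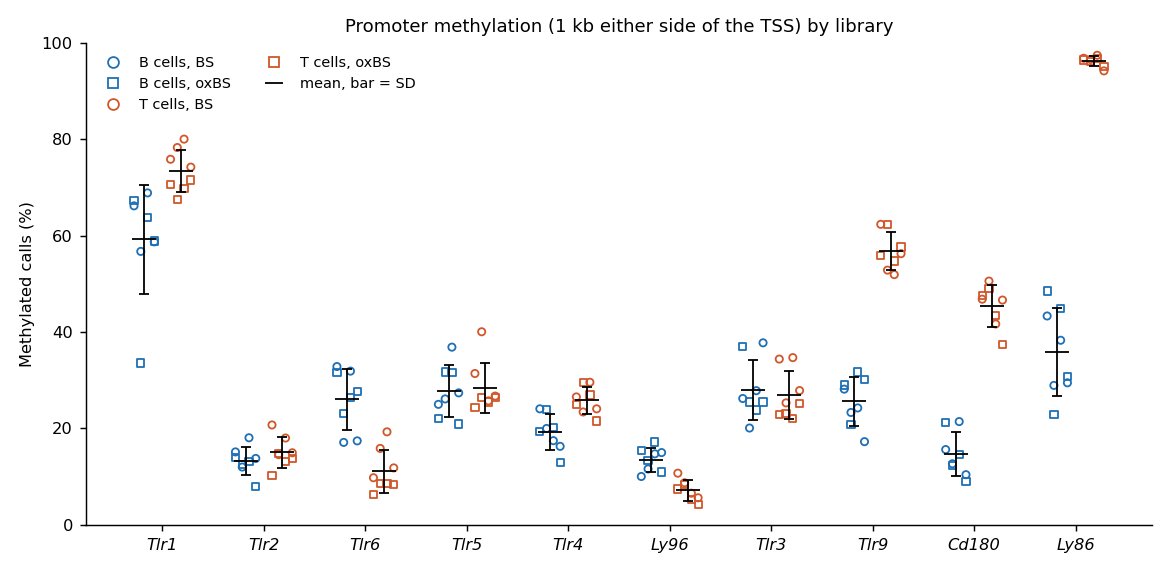
Promoter methylation of the 10 members, in percent of methylated calls on the vertical axis, with each point a library (circles BS, squares oxBS; B cells blue, T cells orange), black ticks the mean and bars the SD over 8 libraries. The B cell and T cell libraries are separate at *Ly86*, *Cd180* and *Tlr9* and overlap at the other 7.

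Of the 3 lipopeptide receptors, *Tlr1* encodes the partner with which TLR2 recognises triacylated lipopeptides. Its promoter (chromosome 5, 64932563 to 64934563, minus strand, 27 CpGs) was at 33.6% in the lowest B cell library, 61.3% at the median and 68.9% in the highest, and in T cells at 67.5, 72.9 and 80%. The groups overlapped only where the highest B cell library (10) passed the lowest T cell library (8). The means were 59.2% ± 11.3 (SD, n = 8) and 73.4% ± 4.38 (SD, n = 8), and the difference of -13.8 points had an adjusted p of 0.026 and was under the limit of 20 points. The largest difference was in the most upstream tile of the promoter, where 3 CpGs between 934 and 800 bp upstream of the TSS had pooled levels of 2.8, 17.4 and 2.0% in B cells, against 52.2, 90.9 and 55.8% in T cells, with between 23 and 51 calls pooled at each. The difference in this tile was -58.7 points (adjusted p = 0.002), with B cell libraries between 0 and 22.7% and the 5 T cell libraries that had at least 10 calls between 46.2 and 81.2%. Libraries had only between 8 and 22 calls here, and a count of 0 in a B cell library allowed a level of up to between 13.6 and 23.1%. Without any one of these 5 T cell libraries (5, 6, 7, 13 or 16) too few informative libraries remained for a test. Without these 3 CpGs the pooled level of the promoter was 65.9% for B cells and 74.5% for T cells, a difference of -8.62 points. The 20 CpGs downstream of the TSS had a median of 77.2% in B cells, against 86.1% in T cells.

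The 300 bases of this upstream tile are shown because the largest tile difference at *Tlr1* was there. They are given on the minus strand, 5′ to 3′, from the mm10 genome at chr5:64934198-64934497, and capitals here and in the sequences that follow mark CpGs.
Tlr1: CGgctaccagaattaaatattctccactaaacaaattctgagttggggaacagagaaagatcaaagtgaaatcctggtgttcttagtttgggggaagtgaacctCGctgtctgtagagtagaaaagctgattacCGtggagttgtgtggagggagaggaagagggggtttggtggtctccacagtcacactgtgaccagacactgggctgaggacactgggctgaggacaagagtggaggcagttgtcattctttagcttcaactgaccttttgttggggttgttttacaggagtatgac

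*Tlr2* encodes the common chain of both lipopeptide receptors. Its promoter (chromosome 3, 83840767 to 83842767, minus strand, 55 CpGs) was low in both cell types, with B cell libraries at 7.93, 13.5 and 18.1% (lowest, median and highest) and T cell libraries at 10.2, 14.7 and 20.7%. The groups overlapped almost wholly, and the difference of -1.54 points did not pass the test (adjusted p = 0.46). The 44 CpGs in the 1 kb downstream of the TSS did not exceed 10.2% (B cells) or 28.6% (T cells), while the 11 upstream had medians of 77.9 and 76.6%. A tile at 1.5 to 2 kb downstream of the TSS, in an intron, went the other way from most members, with B cell libraries at 88.0, 91.7 and 100% and T cell libraries at 9.52, 38.6 and 49.1%. The groups did not overlap, and the difference was 53.2 points (adjusted p = 1.7e-06). This was the only called tile of 19 tested at *Tlr2*, or 5.26%, against 2.52% of all tiles called higher in B cells. Of its 5 CpGs, the 4 nearest the TSS were at 74.1 to 100% in B cells, against 8.3 to 40.9% in T cells, whereas the farthest was at 98.7 and 89.9%. This is the member tile with the largest difference towards B cells, and its sequence (chr3:83839921-83840220, minus strand) was as follows.
Tlr2: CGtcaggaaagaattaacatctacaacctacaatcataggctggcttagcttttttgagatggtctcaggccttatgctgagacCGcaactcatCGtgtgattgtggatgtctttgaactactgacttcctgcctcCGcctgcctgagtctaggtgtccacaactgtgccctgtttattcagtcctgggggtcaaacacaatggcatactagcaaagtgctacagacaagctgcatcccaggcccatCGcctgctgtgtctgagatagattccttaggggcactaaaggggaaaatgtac

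*Tlr6* encodes the partner with which TLR2 recognises diacylated lipopeptides, and it lies beside *Tlr1*. Its promoter (chromosome 5, 64959097 to 64961097, minus strand, 49 CpGs) was higher in B cells, at 17.1, 27.1 and 32.8%, than in T cells, at 6.32, 9.20 and 19.3%. Only the lowest B cell and highest T cell libraries overlapped. The means were 26.0% ± 6.29 (SD, n = 8) and 11.1% ± 4.39 (SD, n = 8), and the difference of 15.0 points had an adjusted p of 0.0043 and was under the limit of 20 points. The difference was 11.1 points in the BS libraries and 19.1 points in the oxBS libraries. Of 25 CpGs from 100 bp to 1 kb downstream of the TSS, 24 had no methylated call in T cells and the other was at 4.41%, while the same CpGs in B cells had a median of 10.9%, reached 46.4% and had no methylated call at 5. At the TSS itself the 7 CpGs of the RefSeq promoter window were between 34.2 and 70.7% in B cells, and 6 of the 7 were between 0 and 7.8% in T cells, where 0 of 47 calls allowed up to 6.38% at the CpG without a methylated call. The promoter (chr5:64959999-64960298, minus strand, 250 bases before to 50 after the RefSeq start) is printed to show how these CpGs are spaced.
Tlr6: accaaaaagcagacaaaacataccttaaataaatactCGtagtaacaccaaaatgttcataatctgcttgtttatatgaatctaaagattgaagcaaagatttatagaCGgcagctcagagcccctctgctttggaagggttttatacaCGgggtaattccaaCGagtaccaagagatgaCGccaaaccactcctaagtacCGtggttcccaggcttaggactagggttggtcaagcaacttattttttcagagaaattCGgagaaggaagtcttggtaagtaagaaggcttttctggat

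Of 24 tested *Tlr6* tiles 3 were called, all higher in B cells, or 12.5% against 2.52% of all tiles. A pair at 500 to 1500 bp downstream of the TSS was at 26.0 to 50% in B cell libraries and at 11.2 to 21.3% in T cell libraries, with no overlap over the joined region. The tile with the largest difference lay in the coding exon at 5.5 to 6 kb, with B cell libraries at 70.5, 80.3 and 90.9% and T cell libraries at 38.9, 48.1 and 70.6%. The highest T cell library just passed the lowest B cell library, and the difference was 31.2 points (adjusted p = 0.00022). *Tlr1* and *Tlr6* therefore differed in opposite directions at their promoters, by -13.8 and 15.0 points, with neither called.

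The flagellin receptor gene *Tlr5* had a promoter (chromosome 1, 182953788 to 182955788, plus strand, 44 CpGs) at 20.9, 26.8 and 36.9% in B cell libraries and at 24.4, 26.4 and 40.1% in T cell libraries. The groups overlapped, and the difference was -0.75 points (adjusted p = 0.90). Outside the promoter, 2 of 48 tested tiles were called (4.17%) and both were higher in T cells. Of all tiles, 1.29% were called higher in T cells and 2.52% higher in B cells. The tile just upstream of the promoter, 1.5 to 1 kb before the TSS, was at 12.5 to 27.5% in B cell and 43.2 to 60.7% in T cell libraries. The other, 4.5 to 5 kb downstream in an intron, held 18 CpGs, with B cell libraries at 8.33, 13.6 and 17.7% and T cell libraries at 33.5, 46.5 and 57.6%. The groups did not overlap, and the difference was -33.8 points (adjusted p = 4.5e-06). Its 16 CpGs shown here (chr1:182959387-182959686, plus strand) did not differ alike. Counted from the 5′ end, CpGs 3, 5 and 13 differed by 4.8, -3.3 and -9.6 points, and CpG 10 by -61.4 points, from 8.2% (B cells) to 69.6% (T cells). The window is printed as the most CpG-rich called tile among the receptors with no called promoter.
Tlr5: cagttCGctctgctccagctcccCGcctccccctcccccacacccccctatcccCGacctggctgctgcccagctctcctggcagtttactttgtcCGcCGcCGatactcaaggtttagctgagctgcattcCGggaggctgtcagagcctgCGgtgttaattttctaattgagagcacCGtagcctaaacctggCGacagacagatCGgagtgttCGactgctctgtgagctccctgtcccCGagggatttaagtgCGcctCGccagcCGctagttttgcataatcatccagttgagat

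*Tlr4* encodes the signalling chain of the LPS receptor. Its promoter (chromosome 4, 66826584 to 66828584, plus strand, 27 CpGs) was at 12.9, 19.7 and 24.1% in B cell libraries and at 21.6, 25.8 and 29.6% in T cell libraries, with some overlap. The means were 19.3% ± 3.77 (SD, n = 8) and 25.8% ± 2.85 (SD, n = 8), and the difference of -6.65 points had an adjusted p of 0.026. Of 100 tested tiles 3 were called (3%), all higher in T cells. Of all tiles, 1.29% were called higher in T cells and 2.52% higher in B cells. Right after the promoter, at 1 to 1.5 kb, B cell libraries were at 0, 6.07 and 11.1% and T cell libraries at 31.2, 37.6 and 47.1%, where 0 methylated calls in a B cell library allowed up to between 8.82 and 20%. The other 2, which were adjacent, lay deep in the gene, 44.5 to 45.5 kb from the TSS in an intron, with B cell libraries at 35.1, 59.2 and 71.7% and T cell libraries at 90.7, 94.6 and 96.8%. The groups did not overlap in either place. In the first of this pair the difference was -43.5 points (adjusted p = 3.0e-05), and of its 5 CpGs the last 3 were at 23.8 to 39.5% in B cells, against 83.3 to 96.7% in T cells. This distal intronic window (chr4:66872120-66872419, plus strand) is shown because it was the largest difference at *Tlr4* and lay far from the promoter.
Tlr4: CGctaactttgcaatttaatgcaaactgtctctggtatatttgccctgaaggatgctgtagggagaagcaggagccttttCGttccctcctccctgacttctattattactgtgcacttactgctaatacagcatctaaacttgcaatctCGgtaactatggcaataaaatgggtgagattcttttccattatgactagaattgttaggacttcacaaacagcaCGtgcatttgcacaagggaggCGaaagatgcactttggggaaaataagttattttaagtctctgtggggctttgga

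*Ly96* encodes MD-2, the secreted protein with which TLR4 binds LPS. Its promoter (chromosome 1, 16687051 to 16689051, plus strand, 32 CpGs) was low in both cell types and higher in B cells, at 10.0, 14.1 and 17.2%, against 4.27, 7.02 and 10.7% in T cells. Only the extreme libraries overlapped. The means were 13.5% ± 2.48 (SD, n = 8) and 7.15% ± 2.12 (SD, n = 8), a difference of 6.28 points (adjusted p = 0.0069). Of 25 CpGs downstream of the TSS, 16 in B cells and 23 in T cells had no methylated call. The tile with the largest difference ran from 500 bp before the TSS to the TSS, with B cell libraries at 30.3, 35.7 and 44.4% and T cell libraries at 6.06, 9.41 and 27.6%. The groups did not overlap there, and the difference was 23.9 points (adjusted p = 0.0015). Without its 4 CpGs the pooled promoter level was 9.96% for B cells and 6.36% for T cells. A tile at 1.5 to 2 kb downstream was called in the other direction, at -21.3 points, with B cells at 23.0% ± 6.32 (SD, n = 8) and T cells at 43.4% ± 8.99 (SD, n = 8). Both calls at *Ly96* lay near the limit of 20 points, and only 1 of them remained without T cell library 5 or 7. *Tlr4* and *Ly96*, whose products form one receptor, differed in opposite directions at their promoters, by -6.65 and 6.28 points. Neither promoter was called, and the libraries overlapped at both.

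Among the endosomal receptors, *Tlr3*, which recognises double-stranded RNA, had no called promoter or tile. Its promoter (chromosome 8, 45410080 to 45412080, minus strand, 24 CpGs) was at 20.1, 25.8 and 37.8% in B cell libraries and at 22.1, 25.3 and 34.7% in T cell libraries. The ranges nearly coincided, and the difference was 0.35 points (adjusted p = 0.94), with means of 28.0% ± 6.23 (SD, n = 8) and 26.9% ± 5.02 (SD, n = 8). In both cell types the 4 CpGs upstream of the TSS were high, with medians of 95.5 and 92.5%, and the 20 downstream had medians of 1.31 and 2.11%. The CpGs at 154, 254 and 310 bp downstream were higher, at 74.6, 86.6 and 40.5% in B cells and 78.4, 86.4 and 44.8% in T cells. The RefSeq promoter window of *Tlr3* lay 450 to 749 bp downstream of the TSS used here. None of 31 tested tiles was called with all libraries. The largest tile difference, 2.5 to 3 kb downstream, was -18.2 points (adjusted p = 0.15) over 6 libraries of each cell type, and without B cell library 1 it was -21.3 points and called (adjusted p = 0.035).

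*Tlr9* encodes the endosomal receptor for unmethylated CpG DNA, to which B cells respond. Its promoter (chromosome 9, 106221598 to 106223598, plus strand, 21 CpGs) was at 17.3, 26.2 and 31.7% in B cell libraries and at 51.9, 56.0 and 62.4% in T cell libraries. The groups were separated by more than their own ranges, with means of 25.6% ± 5.00 (SD, n = 8) and 56.7% ± 3.92 (SD, n = 8). The difference of -30.6 points was called (adjusted p = 2.8e-06), and the two-sided exact permutation test of the library levels gave p = 0.000155, the smallest that 8 against 8 libraries can give. The same smallest p was reached at *Cd180* and *Ly86*. This test takes every library as independent, while BS and oxBS libraries may share DNA, so these p-values can be too small. Of the 21 CpGs, 16 were lower in B cells by at least 20 points and none was higher in B cells.

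The *Tlr9* difference extended beyond the promoter, with 7 of 18 tested tiles called, all higher in T cells, or 38.9% against 1.29% of all tiles. A run of 4 joined tiles spanned 1.5 kb upstream to 500 bp downstream of the TSS, where B cell libraries were at 18.5, 24.6 and 29.1% and T cell libraries at 63.6, 68.6 and 77.9%. The tile with the largest difference lay at 1.5 to 1 kb upstream, with B cell libraries at 19.4, 23.4 and 34.1% and T cell libraries at 90.9, 95.1 and 100%. That difference was -69.5 points (adjusted p = 2.7e-08), the largest at any member outside *Ly86*. Further tiles were called at 2.5 to 2 kb upstream (44.9% ± 9.91 in B cells against 92.5% ± 3.70 in T cells; SD, n = 8 each) and in the coding exon at 1 to 1.5 kb and 3 to 3.5 kb downstream, the latter at 38.0% ± 9.30 against 85.0% ± 3.27 (SD, n = 8 each).

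The most differing upstream window of *Tlr9* (chr9:106221197-106221496, plus strand) is printed because the RefSeq promoter window of the gene holds no CpG, so the contrast could be read only beside it. Its first CpG was at 73.1% in B cells and the next 4 were at 0, 1.2, 1.4 and 6.8%, while all 5 were between 90.9 and 97.7% in T cells. The CpG at 0% had 0 of 75 calls, which allows up to 4%.
Tlr9: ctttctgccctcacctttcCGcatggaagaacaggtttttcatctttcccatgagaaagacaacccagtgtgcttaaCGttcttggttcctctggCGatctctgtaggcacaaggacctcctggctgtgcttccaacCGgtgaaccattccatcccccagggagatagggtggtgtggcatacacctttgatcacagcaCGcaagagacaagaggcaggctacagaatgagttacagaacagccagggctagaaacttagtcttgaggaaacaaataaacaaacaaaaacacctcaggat

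*Cd180* encodes RP105, a relative of TLR4 on the B cell surface that lacks a signalling TIR domain. Its promoter (chromosome 13, 102692558 to 102694558, plus strand, 21 CpGs) was at 9.04, 13.7 and 21.4% in B cell libraries and at 37.4, 46.7 and 50.6% in T cell libraries. No library of one cell type came near the other, and the means were 14.7% ± 4.62 (SD, n = 8) and 45.4% ± 4.31 (SD, n = 8). The difference of -31.0 points was called (adjusted p = 2.8e-06). Within the females alone, 4 against 4 libraries, the difference was -28.7 points and missed the threshold (adjusted p = 0.063). Within 500 bp on either side of the TSS, 10 of 12 CpGs had no methylated call in B cells and the other 2 were at most 2.44%, while in T cells the 12 CpGs had a median of 15.9% and reached 73.9%.

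*Cd180* had 15 called tiles of 73 tested, the highest count of any member, while by share *Tlr9* led with 38.9% against 20.5%. Of the 15 *Cd180* tiles 14 were higher in T cells, or 19.2% of tested tiles against 1.29% of all tiles. They formed 7 runs between 3.5 kb upstream and 14 kb downstream of the TSS. Upstream, at 3.5 to 2.5 kb, B cell libraries were at 25.5, 35.2 and 60% and T cell libraries at 80.5, 86.4 and 92.8%. From the TSS to 1.5 kb downstream the levels were 18% ± 5.17 in B and 54.5% ± 4.99 in T cells (SD, n = 8 each). The tile with the largest difference lay in an intron at 3.5 to 4 kb, with B cell libraries at 8.70, 34.5 and 52.9% and T cell libraries at 91.3, 95.0 and 97.7%. The B cell libraries were spread there and all lay below the T cell libraries, and the difference was -62.7 points (adjusted p = 5.9e-07). The tile higher in B cells, by 24.1 points at 41 to 41.5 kb, also lay inside *Mast4*, which overlaps *Cd180* in this annotation. The 300 bases of the most differing intronic window (chr13:102697073-102697372, plus strand) held 5 CpGs at 26.5 to 53.8% in B cells and 93.2 to 97.4% in T cells.
Cd180: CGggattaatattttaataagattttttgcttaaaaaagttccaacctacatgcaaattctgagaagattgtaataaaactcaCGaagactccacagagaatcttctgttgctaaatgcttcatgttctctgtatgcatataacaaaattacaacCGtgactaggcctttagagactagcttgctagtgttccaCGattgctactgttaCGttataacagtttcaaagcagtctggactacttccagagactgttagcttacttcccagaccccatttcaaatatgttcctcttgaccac

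*Ly86* encodes MD-1, the secreted partner that RP105 needs for surface display, and it showed the largest promoter difference of the members. Its promoter (chromosome 13, 37344208 to 37346208, plus strand, 47 CpGs) was at 22.9, 34.5 and 48.5% in B cell libraries and at 94.1, 96.5 and 97.4% in T cell libraries. The T cell libraries lay within 4 points of each other while the B cell libraries ranged widely, with means of 35.9% ± 9.15 (SD, n = 8) and 96.1% ± 1.04 (SD, n = 8). The difference was -59.9 points (adjusted p = 1.3e-07). It was between -60.3 and -59.4 points in the BS, oxBS, male and female libraries taken separately.

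The low levels of *Ly86* in B cells began just upstream of the TSS, between the CpG at 81.3% that lay 184 bp before it and the CpG at 22.7% that lay 62 bp before it. Of the 14 CpGs upstream, 7 were at 90% or more in B cells, while the 33 downstream had a median of 13.8%. In T cells 46 of the 47 CpGs were at 90% or more. The 13 CpGs of the RefSeq promoter window (chr13:37345095-37345394, plus strand) ranged from 0 to 22.7% in B cells, against 93.7 to 100% in T cells, each over 48 to 95 pooled calls. In B cells the first 9, which include a run of CpGs in direct succession, were at 10.6 to 22.7% and the last 4 at 0 to 2.1%, where 0 of 70 calls allowed up to 4.29%. The window is shown because each of its CpGs differed by 71.3 to 96.9 points.
Ly86: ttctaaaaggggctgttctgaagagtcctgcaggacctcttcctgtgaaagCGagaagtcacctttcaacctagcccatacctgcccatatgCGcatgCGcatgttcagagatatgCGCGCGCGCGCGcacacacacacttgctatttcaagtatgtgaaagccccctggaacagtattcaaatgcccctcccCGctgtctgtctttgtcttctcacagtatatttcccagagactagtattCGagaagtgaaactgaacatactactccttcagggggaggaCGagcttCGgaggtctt

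Of 108 tested *Ly86* tiles 10 were called, all higher in T cells, or 9.26% against 1.29% of all tiles. A run of 3 joined tiles from 500 bp upstream to 1 kb downstream were at 12.8, 26.1 and 40.1% in B cell libraries and at 94.0, 96.1 and 97.4% in T cell libraries. The tile starting at the TSS had the largest difference of any member tile, -77.5 points (adjusted p = 9.1e-07), with B cell libraries between 1.64 and 34.1% and T cell libraries between 94.2 and 98.6%. Another block lay in an intron at 10.5 to 12 kb, with B cell libraries at 24.8, 28.3 and 46.2% and T cell libraries at 65.9, 75.5 and 78.8%. Single tiles far into the gene were called at 54.5 to 55 kb (48.2% ± 10.3 against 90.4% ± 3.49) and at 57.5 to 58 kb (49.9% ± 12.2 against 85.2% ± 8.70; SD, n = 8 each). Over the whole gene body beyond the promoter, by contrast, the mean of the B cell libraries was 85.3% and that of the T cell libraries 88.8%, over 548 CpGs.

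**Figure D2:**
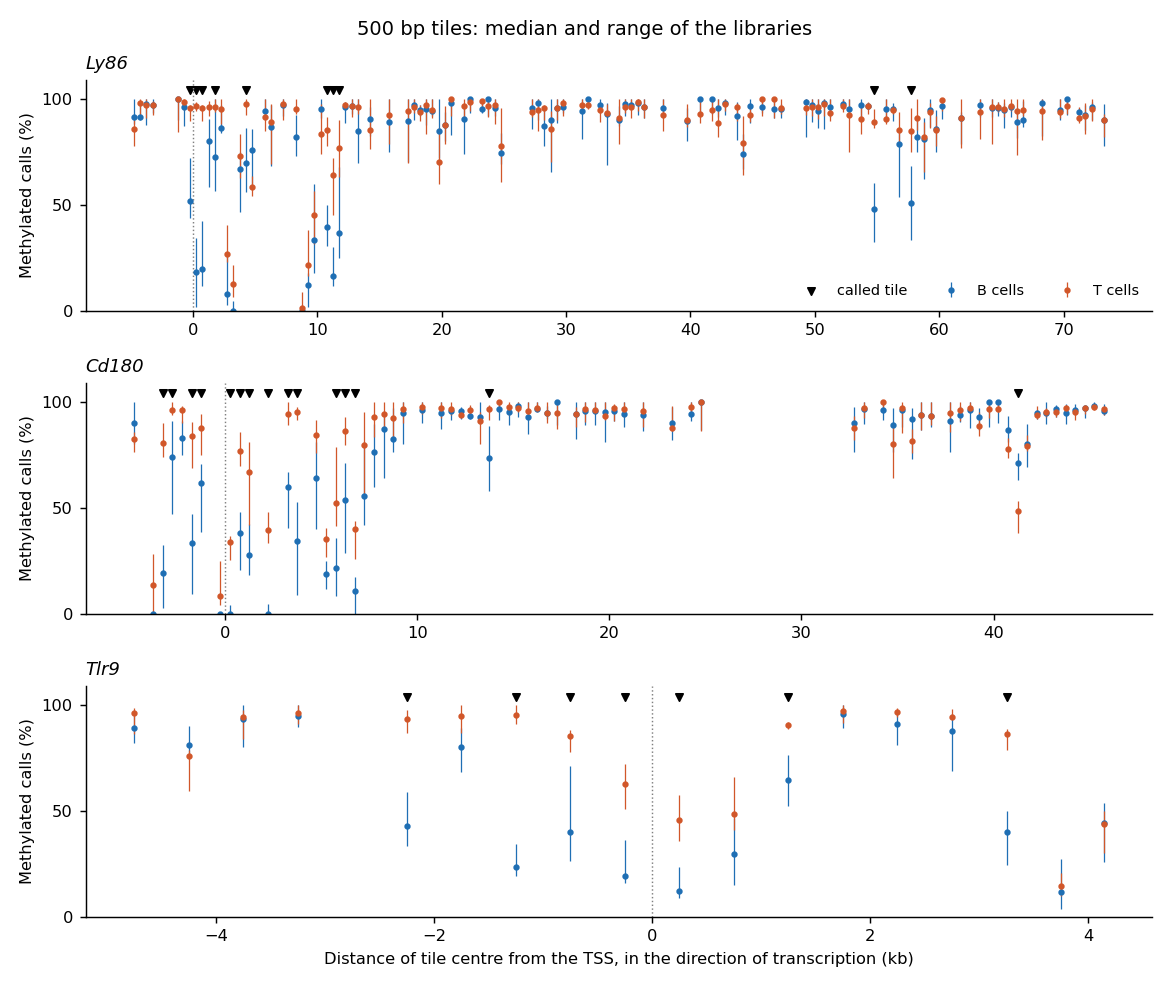
Levels of 500 bp tiles along *Ly86*, *Cd180* and *Tlr9*, in percent of methylated calls, against the distance of the tile centre from the TSS in kb; points are the median and bars the range of the libraries of a cell type, and black triangles mark called tiles. In all, 10, 15 and 7 tiles are called in the 3 genes, some around the TSS and others farther away.

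**Figure D3:**
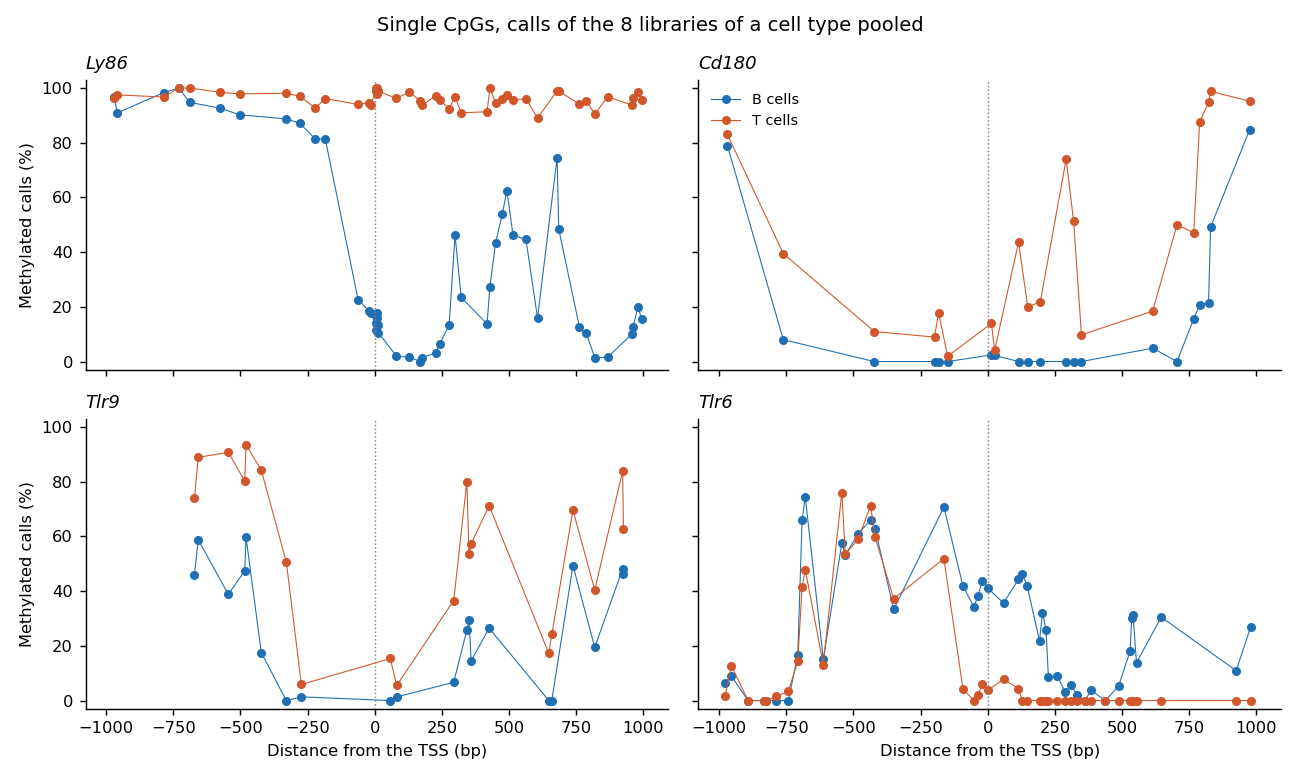
Levels of single CpGs within 1 kb of the TSS of *Ly86*, *Cd180*, *Tlr9* and *Tlr6*, in percent of the calls pooled over the 8 libraries of a cell type, against the distance from the TSS in bp. CpGs with under 20 calls in a cell type are not drawn. In B cells *Ly86* goes from 81.3% at 184 bp to 22.7% at 62 bp upstream of the TSS, and at *Tlr6* the T cells lie lower downstream of the TSS.

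Over the 10 members together, 44 of 472 tested tiles were called. Of these 38 were higher in T cells, or 8.05% of the tested tiles against 1.29% of 1507057 tiles over all genes, and 6 were higher in B cells, or 1.27% against 2.52%. The 38 were unevenly shared, with 14 of 73 tested at *Cd180*, 10 of 108 at *Ly86* and 7 of 18 at *Tlr9*. The rest were 3 of 100 at *Tlr4*, 2 of 48 at *Tlr5*, 1 of 21 at *Tlr1* and 1 of 30 at *Ly96*. The 6 higher in B cells were 3 at *Tlr6* and 1 each at *Tlr2*, *Ly96* and *Cd180*. The median difference over member tiles was 0.26 points and over all tiles 0.51 points. Most member tiles were highly methylated in both cell types, with 358 of 472 at 80% or more in B cells and 380 in T cells, and 30 and 19 at 20% or less. *Tlr9* stood lower over its tiles in B cells, with a median tile level of 57.4% against 91.7% in T cells, while for the other 9 members both cell types had medians from 90.3 to 95.3%. Member promoters were not CpG-dense, at between 10.5 and 27.5 CpGs per kb, and between 21.0 and 43.6% of promoters had fewer CpGs.

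**Figure D4:**
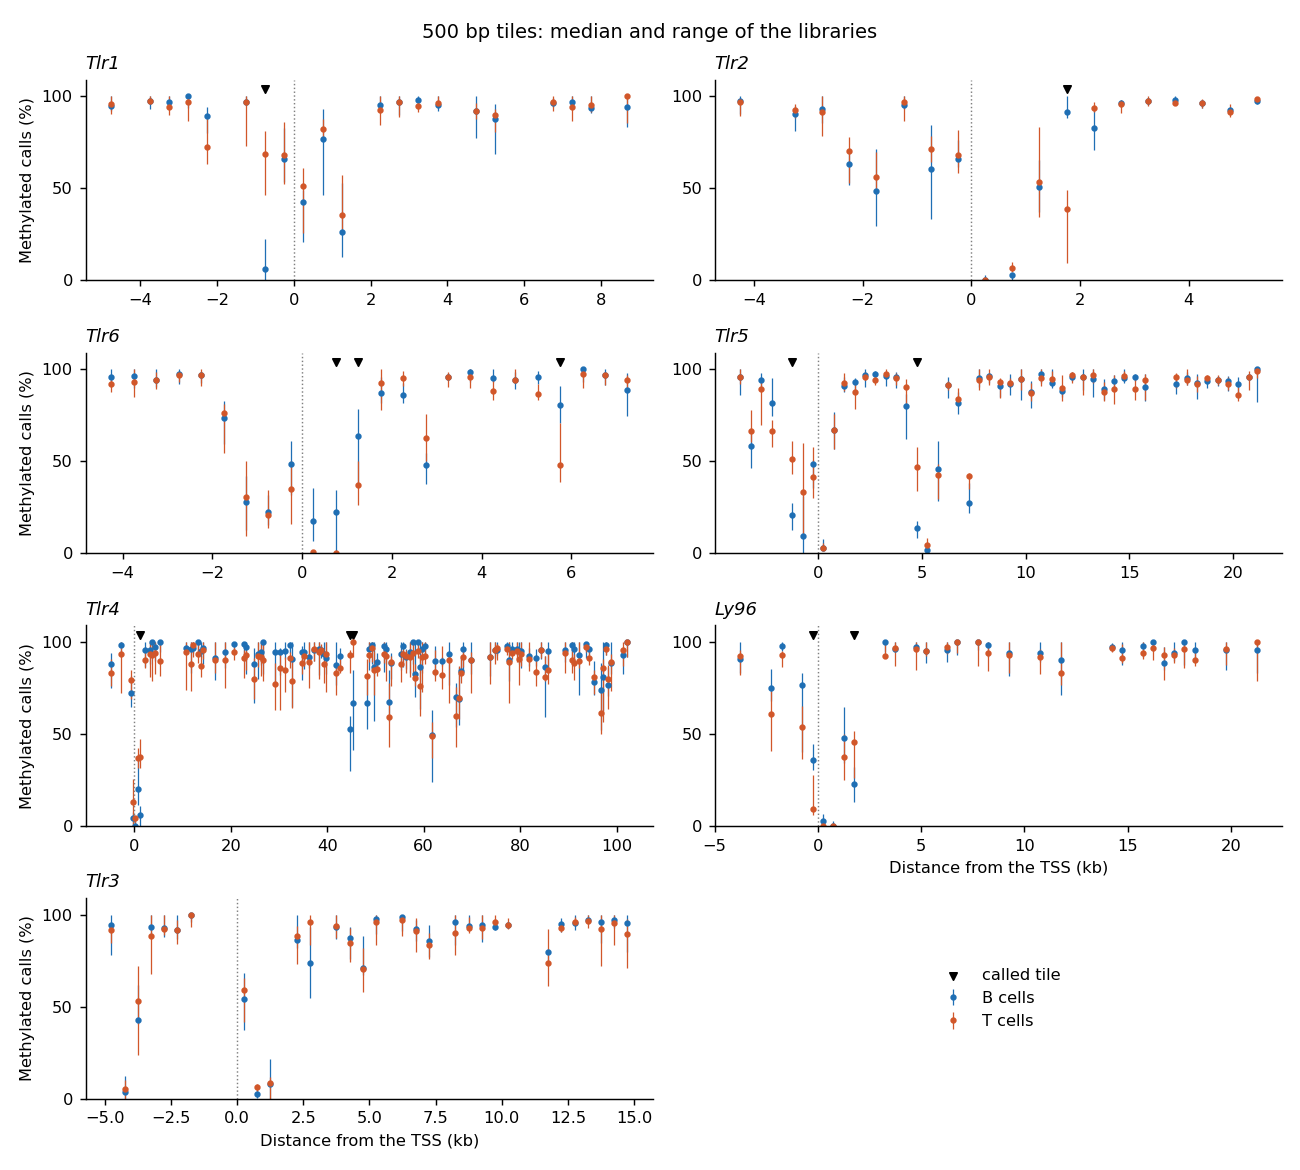
Levels of 500 bp tiles along the other 7 members, in percent of methylated calls against the distance from the TSS in kb; points are the median and bars the range of the libraries of a cell type, and black triangles mark called tiles. Most tiles are high in both cell types, and between 0 and 3 tiles per gene are called, among them the *Tlr2* tile at 1.5 to 2 kb with medians of 91.7% for B and 38.6% for T cells.

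Of 39 other genes of the pathway, 1 promoter was called, that of *Ikbke*, an IKK-related kinase acting with TBK1. It was at 27.5% ± 6.01 (SD, n = 8) over the B cell and 5.55% ± 2.18 (SD, n = 8) over the T cell libraries, a pooled difference of 20.9 points, just past the limit, and 5 of its tiles were called, all higher in B cells. No promoter was called among the 2 other TLRs (*Tlr11* and *Tlr12*), the 7 binding and folding partners, the 6 adaptors, the 8 transcription factors or the 4 negative regulators. The promoters of the 39 genes had a median difference of 0.55 points, close to the 0.52 points of all promoters. Of 2329 tested tiles, 106 were called higher in T cells, or 4.55% against 1.29% of all tiles, and 98 higher in B cells, or 4.21% against 2.52%. The 5 genes with most called tiles had promoters at most 16.4% in either cell type, apart from *Irak2*, a kinase downstream of MYD88, whose promoter was at 31.9 and 25.8%. *Pik3ap1*, which encodes the adaptor BCAP, had 29 called tiles of 200 tested, 26 of them higher in T cells. *Irf8*, a transcription factor of B cells and myeloid cells, had 23 of 50, with 21 higher in T cells, and *Irak2* had 14 of 113, with 12 higher in T cells. *Peli1*, a ubiquitin ligase, had 24 of 62, all higher in B cells, and *Nfkb1*, the gene of the p105 and p50 NF-kB subunit, had 26 of 194, with 19 higher in B cells.

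The 8 B cell libraries were not alike at these genes. The mean level of the 7 B cell marker promoters was between 16.2 and 19.1% in libraries 1, 2, 9 and 10 and between 10.7 and 12.5% in libraries 3, 4, 11 and 12, with 1 library of each sex and assay in each set. Libraries with consecutive numbers (1 and 2, 9 and 10, 3 and 4, 11 and 12), each a BS and an oxBS library of the same sex, always fell in the same set. Such libraries may share DNA, so the libraries of a set may not be independent. The *Ly86* promoter was between 38.3 and 48.5% in the first set and between 22.9 and 30.7% in the second, and *Cd180* between 14.6 and 21.4% and between 9.04 and 12.7%. *Tlr1* was between 63.8 and 68.9% in the first set and between 33.6 and 58.9% in the second. At these 3 promoters the sets did not overlap and the first was higher, which held for 3.51% of the 20251 promoters with a level in all 8 libraries. Since the sets were drawn with these levels in view, nothing is read from this count. At the other 7 the sets overlapped, for example *Tlr9* with 24.3 to 31.7% and 17.3 to 30.1%, *Tlr6* with 26.5 to 32.8% and 17.1 to 27.7%, and *Tlr3* with 23.8 to 37.0% and 20.1 to 37.8%. The mean of the 7 T cell marker promoters was between 60.1 and 62.0% in the first set and between 59.1 and 61.4% in the second, that of the myeloid markers between 71.2 and 75.4% and between 70 and 73.9%, and that of the 4 NK and CD8 markers between 86.1 and 87.8% and between 83.1 and 86.7%. The sets were drawn after the levels had been seen, so no test was made between them, and the part that the composition of the sort or the DNA pools had in this spread was not tested. With the first set left out, 4 member promoters and 45 tiles were called, with *Tlr1* added at -20.9 points. The *Tlr1* promoter was higher in the first set, so leaving that set out was bound to enlarge this difference. With the second left out, 3 promoters and 34 tiles were called. There the *Tlr1* promoter differed by -7.40 points, and the *Tlr1* tile by -54.8 points without being called. The split was drawn with the levels in view, so nothing is read from these calls.

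**Figure D5:**
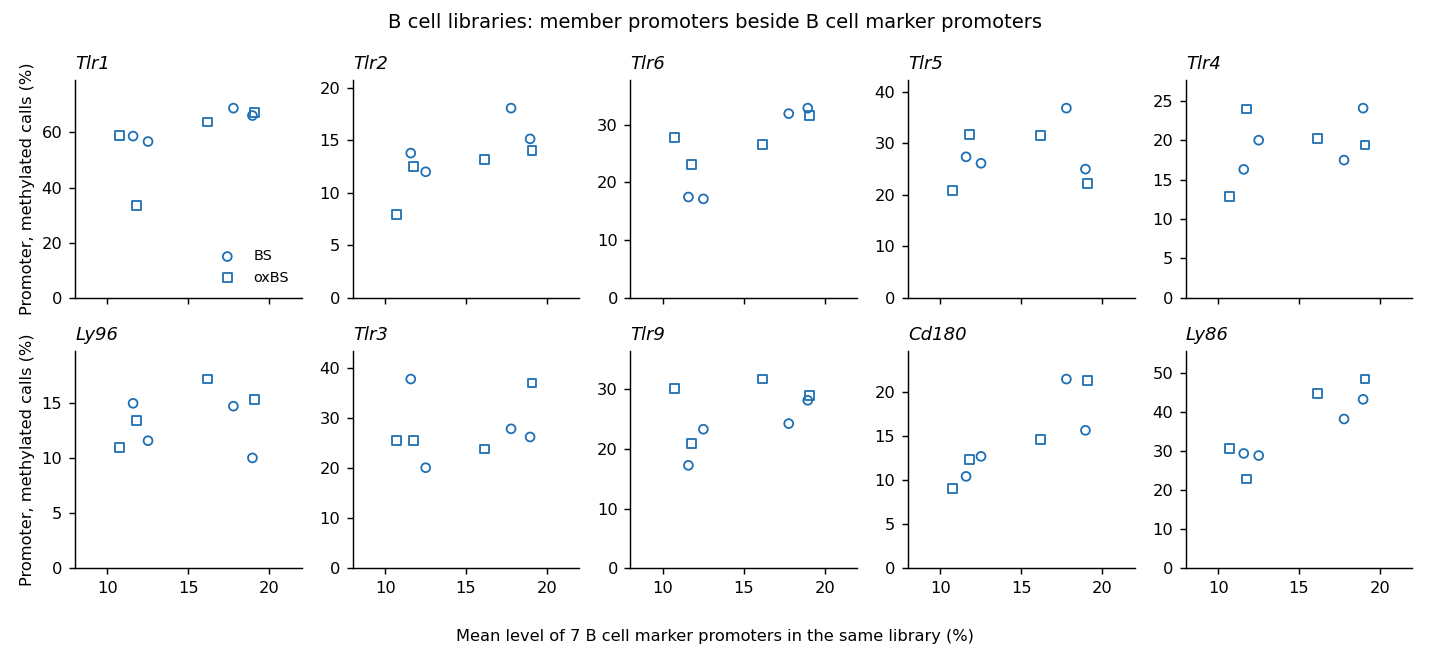
Promoter level of each member in the 8 B cell libraries, in percent of methylated calls, against the mean level of 7 B cell marker promoters in the same library (circles BS, squares oxBS). The libraries form separate sets at 10.7 to 12.5% and 16.2 to 19.1% of marker level, and *Ly86*, *Cd180* and *Tlr1* do not overlap between the sets, as 3.51% of all promoters do not in this direction.

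BS and oxBS libraries and the sexes were compared within each cell type, to see whether 5-hydroxymethylcytosine or sex moved the member promoters. No member promoter was called in any of these 4 comparisons or in the interactions of cell type with sex or assay, and 0% of all promoters were called by the quasi-binomial model. At an unadjusted p under 0.05 the assay comparison had 599 of 20402 promoters in B cells and 1966 of 20403 in T cells, and the sex comparison had 515 and 602. With limma, 3 promoters were called between the assays in T cells, none of them a member, and none in the other 3 comparisons. On simulated data in which most promoters were unchanged, the model recovered 0 of 61 promoters of intermediate level changed by 20 points between the assays in B cells. A lack of calls in these 4 comparisons therefore says little.

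In T cells the oxBS libraries were lower than the BS libraries at *Tlr1*, at 69.8% ± 1.74 against 77.1% ± 2.57 (SD, n = 4 each), at *Tlr6*, at 7.97% ± 1.10 against 14.2% ± 4.24, and at *Tlr3*, at 23.3% ± 1.32 against 30.6% ± 4.71. At each of these 3 the libraries of the assays did not overlap, and the exact permutation test gave the smallest p that 4 against 4 libraries allow, 0.0286. Libraries without overlap and lower with oxBS were found at 7.8% of the 20280 promoters with a level in all 8 T cell libraries. None of the 3 passed after adjustment over all promoters (adjusted p = 0.45, 0.47 and 0.50), and at *Tlr3* the oxBS minus BS difference of -7.23 points became 1.03 points with windows of 500 bp on either side of the TSS. Single CpGs of the *Tlr3* promoter ranged from 0 to 98.6% in T cells, so its level also depends on which of them had calls. The part of coverage in the *Tlr3* difference was not tested. The mean of the 7 T cell marker promoters in T cells was also lower with oxBS, between 3.1 and 4.0% against 6.17 to 9.34%. The same held for the myeloid markers, at 70.2 to 72.6% with oxBS against 74.3 to 77.3%, and for the NK and CD8 markers, at 62.4 to 65.5% against 68.2 to 71.3%. It also held for all autosomal CpG calls of a library, at 78.4 to 78.9% against 79.4 to 79.6%. The B cell markers in T cells overlapped between the assays, at 57.1 to 64.0% with oxBS and 61.6 to 64.3% with BS. The part of these shifts in the member differences was not tested. The median oxBS minus BS difference over the 10 members was -3.08 points in T cells and -0.20 points in B cells. Between the sexes, *Ly96* in T cells was at 8.84% ± 1.37 in males and 5.45% ± 0.95 in females (SD, n = 4 each; exact permutation p = 0.0286, adjusted p of 1), and *Cd180* in T cells at 48.5% ± 1.67 and 42.3% ± 3.84, with no overlap at either (exact permutation p = 0.0286 at both), which held in this direction for 1.49% of promoters. The difference at *Cd180* had a p of 0.067 by the quasi-binomial model and an adjusted p of 1, so neither gene passed after adjustment. The B minus T difference at *Ly96* was 3.59 points in males and 8.79 points in females (interaction p = 0.014 by the quasi-binomial model, adjusted p of 1), and the other 9 members had an interaction p above 0.05 for sex.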

How the data were processed

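DNA methylation was measured by whole genome BS and oxBS sequencing. The authors mapped trimmed reads to mm10 with Bismark (Trim Galore 0.6.0, Bismark 0.20.0 and SAMtools 1.3.1 in the submitters' processing notes) and called methylation where the MAPQ was 10 or more. What was deposited are counts, the number of unmethylated and of methylated calls at each CpG of each library, both strands added, with no normalisation. In each library 43070 to 59226 positions did not fall on an autosomal CpG of mm10 and were not used.

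Calls were summed over promoters and 500 bp tiles of autosomal protein-coding genes (GENCODE vM21) that held 3 CpGs or more and had 10 calls or more in at least 5 libraries of each cell type. B and T cells were compared by a quasi-binomial logistic model with an F test, with sex and assay as covariates and a dispersion of at least 1, in Python 3.11.15 (NumPy 2.4.6, SciPy 1.17.1). Adjustment was by the Benjamini-Hochberg method over all 20388 promoters or 1507057 tiles. Limma 3.58.1 on log2 ratios of calls, in R 4.3.3, and exact permutation tests were alternatives. Assay and sex were tested within each cell type by the same model, and the interactions over all libraries. Member promoters held between 113 and 648 calls per library (median 233) and tiles a median of 36. Limits for a count of 0 (3 counts) and 95% Wilson intervals cover counting error only and take each call as independent. Neighbouring CpGs can share a read, so these limits and intervals can be too narrow. Simulated counts at the real depths had differences placed only in promoters and tiles of intermediate mean level, with the tiles taken from a subset of 200000. There the model recovered 65 of 67 promoters and 40 of 69 tiles with 30 points between the cell types. It recovered 70 of 70 promoters and 68 of 73 tiles with 50 points, and none of 63 promoters with 10 points, which is under the limit of 20. Recovery at low or high levels was not tested.

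All 10 members were named in every comparison. For each, the tile with the largest difference was described and adjacent called tiles of one direction were joined. Of the pathway list, the genes with a called promoter and the 5 with most called tiles were named. The members and lists were chosen with earlier results of these data known. Printed sequences came from RefSeq promoter windows, which were found for 8 of 10 members, and from the mm10 genome. Pairs of libraries of 1 cell type, sex and assay differed slightly beyond counting noise (chi-square per degree of freedom 1.06 to 1.08), and B against T pairs by 1.35 to 1.41, so no library appeared to be a copy of another. Alternatives in the call minimum, limit, window, libraries and test were tried. Those that left out sets of B cell libraries, and interactions with no lower bound on the dispersion, were chosen after seeing the data.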

Additional observations from a re-analysis of the deposited data

Results flagged for a closer look

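Of 40 groups of libraries examined (the promoter and the tile with the largest difference of each member, in each cell type), 2 had a library far from the others by Dixon's criterion, and chance gives about 1 in 20 groups. At the *Tlr1* promoter, B cell library 3 was at 33.6% of 131 calls (95% Wilson interval 26.1 to 42.0%), while the other 7 B cell libraries lay between 56.7 and 68.9%. At the *Tlr5* promoter, T cell library 7 was at 40.1% of 382 calls (95% Wilson interval 35.3 to 45.0%), while the other 7 T cell libraries lay between 24.4 and 31.4%.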

How the results depend on the processing

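The 3 called member promoters became 5 with a limit of 10 points (*Tlr1* and *Tlr6* added). With no limit they became 7 of 10, where 2083 of all 20388 promoters passed. They stayed at 3 without any single library. The 44 called tiles became 68 with a limit of 10 points and 25 with tiles of 1000 bp, which are fewer. With no limit they became 77 of 472, where 116795 of all 1507057 tiles passed. Within 4 against 4 libraries 15 tiles were called with BS, 18 with oxBS, 16 with males and 14 with females, and without single libraries between 43 and 48. Apart from the counts with no limit, shares over all promoters or tiles are not given here. Those counts show only how the member calls moved with the setting. *Tlr9* and *Ly86* promoters were called under all 19 alternatives, and *Cd180* under 18. Not all of these could remove a call. A lower limit, or none, only relaxes it, and the call minimums tried lay under the 113 calls of the least covered member promoter. Those that left out sets of B cell libraries were drawn with the levels in view. The count of alternatives is therefore no measure of robustness. With 4 against 4 libraries the leading tiles of *Tlr1*, *Tlr6*, *Tlr5*, *Tlr4* and *Ly96* lost the call in at least 1 subset, with differences of -67.4 (BS) and -63.0 points (males) at *Tlr1*, where oxBS (-45.2) and females (-54.1) left too few informative T cell libraries for a test, and between 30.3 and 32.4 at *Tlr6*, -37.1 and -30.7 at *Tlr5*, -49.2 and -38.0 at *Tlr4* and 19.7 and 27.3 at *Ly96*, and those of *Tlr2*, *Tlr9*, *Cd180* and *Ly86* kept it in all 4. Differences with no call changed sign at 3 promoters. *Tlr3* was at -3.22 points with BS, -0.92 with the mean of CpG fractions, -0.60 with 2 kb windows and -0.54 without the B cell libraries of higher marker level, and between -0.71 and 1.37 without single libraries. *Tlr5* was at 0.89 with oxBS, 2.59 with females, 0.026 with 500 bp windows and 0.46 without the B cell libraries of lower marker level, and between -1.81 and 0.77 without single libraries. *Tlr2* was at 0.99 with 500 bp windows, 1.97 with 2 kb windows and 0.27 without the B cell libraries of lower marker level. The oxBS minus BS difference of *Tlr3* in T cells was 1.03 points with 500 bp windows. The cause of these changes was not tested. No assay or sex call appeared at a member under any alternative. On simulated data, at intermediate levels, fewer tiles than promoters with 30 points between the cell types were recovered (40 of 69 against 65 of 67). No paired analysis of B against T cells was possible because their libraries share no library number. Library numbers that follow each other (1 and 2, 3 and 4, and so on) held a BS and an oxBS library of the same sex and cell type. The labels do not state that these are pairs, and the assays were compared unpaired.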

Other observations

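In the pathway list, chosen here after its values were seen, the promoter of *Tlr12*, a receptor for profilin, was higher in B cells by 15.0 points (adjusted p = 0.0015), under the limit of 20 points, and that of *Tlr11*, its close relative, differed by -2.37 points (adjusted p = 0.50). *Lbp*, which encodes the LPS-binding protein, differed by -13.6 points. In the 8 RefSeq promoter windows searched on both strands, GAGGAA, a core shared by PU.1 and Ets factors, was found once on each strand at *Tlr9* and on the gene strand at *Tlr1*, and 28.3% of 32851 such windows held it. TGTGGT, the RUNX core, was found at no member and in 16.8% of windows, and TATAAA, the TATA box, only at *Tlr6*, 3 times on the other strand, and in 13.6% of windows. Such matches describe the letters only.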
